A study of Mus musculus with 6 samples.

Results

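Oxtr, which encodes the oxytocin receptor, and 9 genes of the contractile apparatus of myoepithelial cells (Acta2, Actg2, Myh11, Cnn1, Tagln, Mylk, Myl9, Tpm2 and Lmod1) were examined in mouse mammary organoids of wild-type and conditional Ezh2 knockout genotype. The genes were taken by symbol from the deposited table, where all 10 of 10 were found among 21627 genes, and all 10 passed the filter on low counts that left 14196 genes for testing. They were chosen by their read counts in these same libraries, Oxtr being higher and Cnn1 lower in the knockout. For all 10 genes the comparison of the genotypes is therefore a description, with no p-value, and counts of members past a threshold stand only beside the share of all genes.

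The organoids were grown from primary mammary epithelial cells of female FVB/N mice of the MIC line, aged 8 to 12 weeks. About 10000 cells per chamber formed acini over 6 days in medium with EGF, insulin and hydrocortisone, and were then kept for 8 days in 2 µg/ml doxycycline, renewed every 48 hours. In all libraries, controls included, doxycycline induced the polyomavirus middle T oncogene. The wild-type group (WT, genotype MIC/Wild-type, EZH2wt/wt) and the knockout group (KO, genotype MIC/Conditional Ezh2 KO, EZH2fl/fl with the conditional alleles deleted under the same doxycycline) gave 3 libraries each. The labels name neither the promoter that drives the transgene nor the deleted exons, and do not say whether the replicates are separate mice or cultures, so errors measure the spread between these libraries, which may be technical.

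Myoepithelial cells form the basal layer of mammary ducts and alveoli and squeeze milk out of the gland. Oxytocin binds its receptor on these cells, the receptor acts through Gq proteins and phospholipase C, and the inositol trisphosphate made there releases calcium from stores. Calcium with calmodulin activates myosin light chain kinase, which phosphorylates the regulatory light chain so that smooth muscle myosin pulls on actin filaments. The genes of this apparatus are classical targets of serum response factor (SRF) and its myocardin-family partners, which bind DNA at the CArG box.

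The promoters of the 2 genes that stood farthest apart, Oxtr and Cnn1, and of 2 genes with CArG boxes close to their start, Acta2 and Myl9, are shown to compare what precedes them. RefSeq windows on GRCm38.p6, the build of the files (mm10), were found for 7 of the 10 genes: Oxtr, Acta2, Cnn1, Mylk, Myl9, Tpm2 and Lmod1. Each printed stretch starts 250 bases before the RefSeq start site and ends just before it, or 51 bases before it for Myl9, and capitals mark CArG boxes with at most 1 base other than A or T among the 6 in the middle.
Oxtr (chr6:112489826-112490075, minus strand): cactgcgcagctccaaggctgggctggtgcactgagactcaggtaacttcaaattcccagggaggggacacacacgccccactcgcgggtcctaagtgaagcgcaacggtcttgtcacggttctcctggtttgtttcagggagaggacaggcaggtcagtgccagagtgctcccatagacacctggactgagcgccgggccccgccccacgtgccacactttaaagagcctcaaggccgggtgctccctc
Cnn1 (chr9:22099003-22099252, plus strand): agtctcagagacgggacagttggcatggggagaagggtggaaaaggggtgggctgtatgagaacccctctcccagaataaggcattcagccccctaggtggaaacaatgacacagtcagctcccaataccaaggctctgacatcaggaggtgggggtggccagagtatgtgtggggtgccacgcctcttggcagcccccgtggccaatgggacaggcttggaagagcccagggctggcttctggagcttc
Acta2 (chr19:34255374-34255623, minus strand): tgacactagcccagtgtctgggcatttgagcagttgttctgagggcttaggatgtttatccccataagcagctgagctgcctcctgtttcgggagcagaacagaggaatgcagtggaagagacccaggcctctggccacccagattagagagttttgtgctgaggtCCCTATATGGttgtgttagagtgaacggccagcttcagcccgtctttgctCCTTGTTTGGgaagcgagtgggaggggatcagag
Myl9 (chr2:156775214-156775413, plus strand): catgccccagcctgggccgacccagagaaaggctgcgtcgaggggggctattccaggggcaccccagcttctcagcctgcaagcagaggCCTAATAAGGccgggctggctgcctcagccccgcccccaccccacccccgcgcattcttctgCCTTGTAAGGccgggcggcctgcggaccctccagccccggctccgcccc
Myl9 held CCTAATAAGG, a CArG box without a mismatch, from position -161 to -152, and CCTTGTAAGG, with 1 mismatch, from -99 to -90. Acta2 held a pair of boxes with 1 mismatch, CCCTATATGG from -84 to -75 and CCTTGTTTGG from -34 to -25. The box reads the same way on both strands, so 1 search covered both. In windows of 300 bases (250 before the start and 50 after), a box without a mismatch was found for 1 of the 7 genes and in 1.63% of 32851 mouse windows. With 1 mismatch allowed it was found for 2 of the 7 genes and in 9.98% of all windows. The windows of Oxtr, Cnn1, Mylk, Tpm2 and Lmod1 held no match, which says only that these letters were not in these windows. The Mylk window lay 39740 bases inside the gene as the files bound it, and the Mylk locus makes several transcripts that a count per gene does not separate.

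The libraries held 27667054 to 29203634 counts in KO and 18292722 to 23437024 in WT organoids, so each KO library was deeper than each WT library. Ezh2, the targeted gene, was at 5.84 to 7.28 CPM (a gene's counts relative to the scaled total of its library) in the KO libraries and 14.7 to 22.6 CPM in the WT libraries. Its log2 fold change was -1.48 ± 0.20 (SE; adjusted p 0.0755 in edgeR), so its RNA was lower but not absent. Over all genes, pairs of WT libraries were less alike (chi-square of 69.3 to 136 per gene) than pairs of KO libraries (13.0 to 21.2). At an adjusted p of 0.05, edgeR's quasi-likelihood test passed 0 of the 14196 genes, with 2811 genes (19.8%) at an unadjusted p under 0.05, and DESeq2 called 1046 (7.37%). All KO libraries lay above or below all WT libraries for 4086 genes (28.8%).

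The receptor gene was higher in all KO libraries. Oxtr (ENSMUSG00000049112, chromosome 6 from 112473684 to 112489808 in mm10, minus strand, 64.9 Mb from Ezh2) was at 68.4, 54.6 and 40.5 CPM in KO replicates 1 to 3 and at 11.3, 26.3 and 12.8 CPM in WT replicates 1 to 3. The groups did not overlap, and WT replicate 2 lay apart from the other 2 WT libraries. The means were 54.5 ± 13.9 CPM in KO organoids and 16.8 ± 8.29 CPM in the WT group (SD, n = 3 each), with a log2 fold change of 1.70 ± 0.35 (SE). Leaving out 1 library at a time kept it between 1.49 and 2.18, the highest without WT replicate 2. With FPKM, which divides by gene length, Oxtr moved from the 34.4th percentile of tested genes in WT to the 61.6th in KO organoids.

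**Figure D1:**
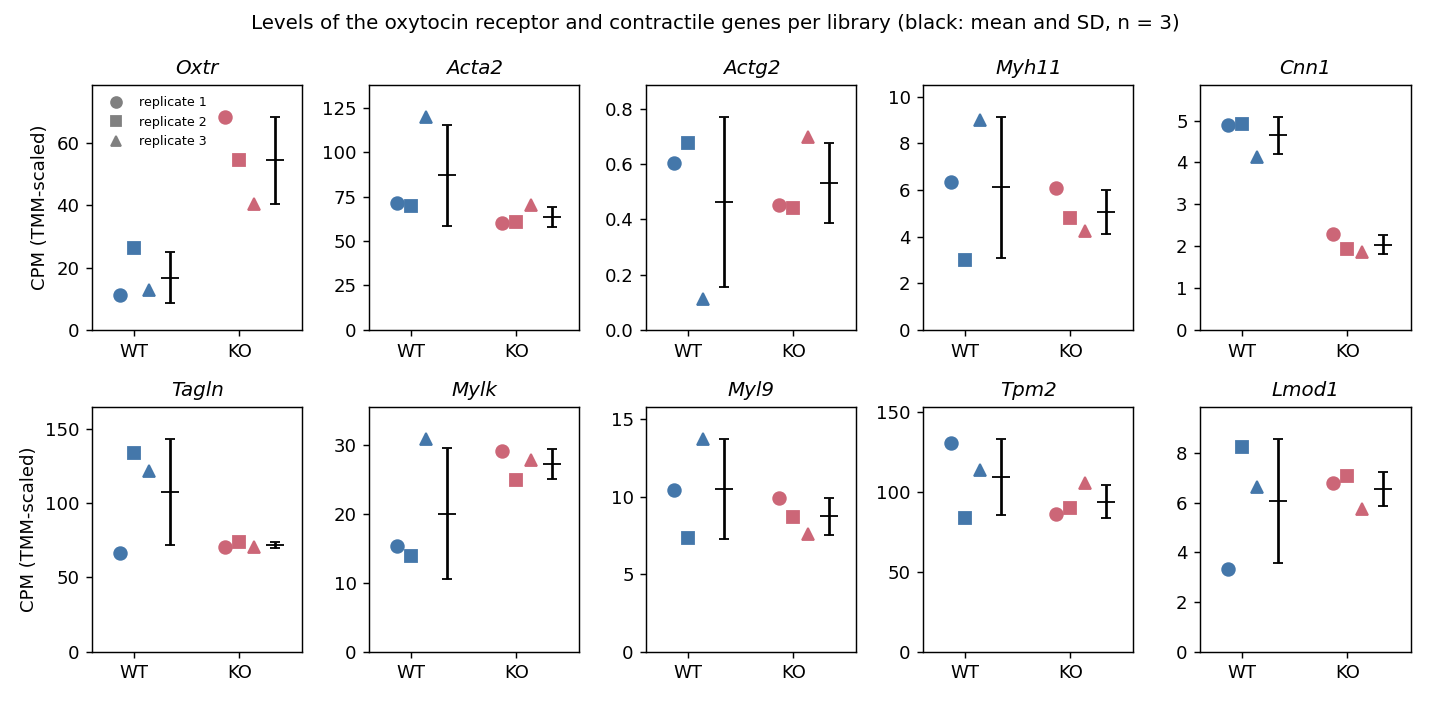
Level of each gene in CPM on the vertical axis, from 0, in 3 WT (blue) and 3 KO (red) libraries; marker shapes give the replicate number and black bars the mean and SD. Oxtr (KO 40.5 to 68.4 CPM, WT 11.3 to 26.3) and Cnn1 (KO 1.87 to 2.30, WT 4.14 to 4.92) are the genes whose groups do not overlap.

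Cnn1, which encodes calponin, an actin-binding protein that restrains smooth muscle myosin, stood lower in KO organoids and was the steadiest member in WT. Cnn1 (ENSMUSG00000001349, chromosome 9 from 22099281 to 22109630, plus strand) was at 2.30, 1.94 and 1.87 CPM in KO organoids and at 4.88, 4.92 and 4.14 CPM in WT replicates 1 to 3. The KO libraries were close together and all below the WT libraries. The means were 2.04 ± 0.227 and 4.65 ± 0.441 CPM (SD, n = 3 per group), so KO organoids held 43.8% of the WT level, a log2 fold change of -1.19 ± 0.23 (SE). It stayed between -1.28 and -1.13 when each library was left out. These levels rest on 51 to 113 counts per library, and the coefficient of variation (SD over mean) of 9.48% in WT and 11.2% in KO was no larger than the 10.2% and 13.1% that counting alone gives.

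Oxtr and Cnn1 were the 2 of 10 members whose groups did not overlap, beside 28.8% of all tested genes, and the same 2 passed in DESeq2, beside 7.37%, while 0 of 10 passed in edgeR, beside 0%. Nothing is read from these counts, since both genes were picked with this contrast known. Of the 10 log2 fold changes 6 were below 0, as were 55.5% of all tested genes. The median of the 10 was -0.24 (-0.05 over all tested genes).

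For the actin and actin-filament genes the groups overlapped, with wide WT ranges. Acta2, smooth muscle alpha-actin (chromosome 19 from 34241090 to 34255336), was at 60.0, 60.6 and 70.2 CPM in KO organoids and at 71.4, 69.5 and 119.8 CPM in WT replicates 1 to 3. WT replicate 3 stood apart, and KO replicate 3 lay within the WT range. The log2 fold change was -0.45 ± 0.22 (SE), or -0.15 without WT replicate 3. Tagln, transgelin, an actin-bundling protein (chromosome 9 from 45929628 to 45936058), was at 70.7, 74.0 and 70.5 CPM in KO organoids and at 66.5, 133.8 and 121.8 CPM in WT replicates 1 to 3. Here WT replicate 1 was the low library, below every KO library, and the log2 fold change was -0.58 ± 0.24, or -0.82 without that library and -0.39 without WT replicate 2. Tpm2, a tropomyosin that lies along the actin filament (chromosome 4 from 43514711 to 43523765), was at 86.5 to 105.7 CPM in KO organoids and 83.7 to 131.1 CPM in the WT group, a log2 fold change of -0.22 ± 0.18 that was -0.05 without WT replicate 1.

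Lmod1, leiomodin, which starts new actin filaments in smooth muscle (chromosome 1 from 135324807 to 135368065), was at 5.77 to 7.07 CPM in KO organoids and 3.33 to 8.25 CPM in WT organoids. Its log2 fold change was 0.11 ± 0.33 (SE), or -0.18 without WT replicate 1. Actg2, the gamma-actin of enteric smooth muscle (chromosome 6 from 83512905 to 83536265), had 13, 13 and 19 counts in KO and 14, 14 and 2 counts in WT replicates 1 to 3. At this depth a difference was not detectable: the log2 fold change was 0.16 ± 0.61, and -0.27 without WT replicate 3. The WT coefficient of variation of Actg2 was 66.2% where counting alone gives 31.6%.

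The groups also overlapped for the 3 myosin genes. Mylk, the kinase that phosphorylates the regulatory light chain (chromosome 16 from 34745210 to 35002420), was at 29.1, 24.9 and 27.9 CPM in KO organoids and at 15.3, 13.8 and 30.9 CPM in WT replicates 1 to 3. WT replicate 3 lay above every KO library and the other WT libraries below every KO library. The log2 fold change was 0.45 ± 0.30 (SE), and 0.90 ± 0.14 without WT replicate 3. Myl9, the regulatory light chain (chromosome 2 from 156775420 to 156781658), was at 7.60 to 9.95 CPM in KO organoids and 7.33 to 13.8 CPM in the WT group, a log2 fold change of -0.27 ± 0.25 that was -0.02 without WT replicate 3. Myh11, the smooth muscle myosin heavy chain (chromosome 16 from 14194527 to 14291408), was at 4.26 to 6.09 CPM in KO organoids and 2.99 to 9.01 CPM in WT organoids. Its log2 fold change was -0.27 ± 0.39, and 0.11 without WT replicate 3.

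**Figure D2:**
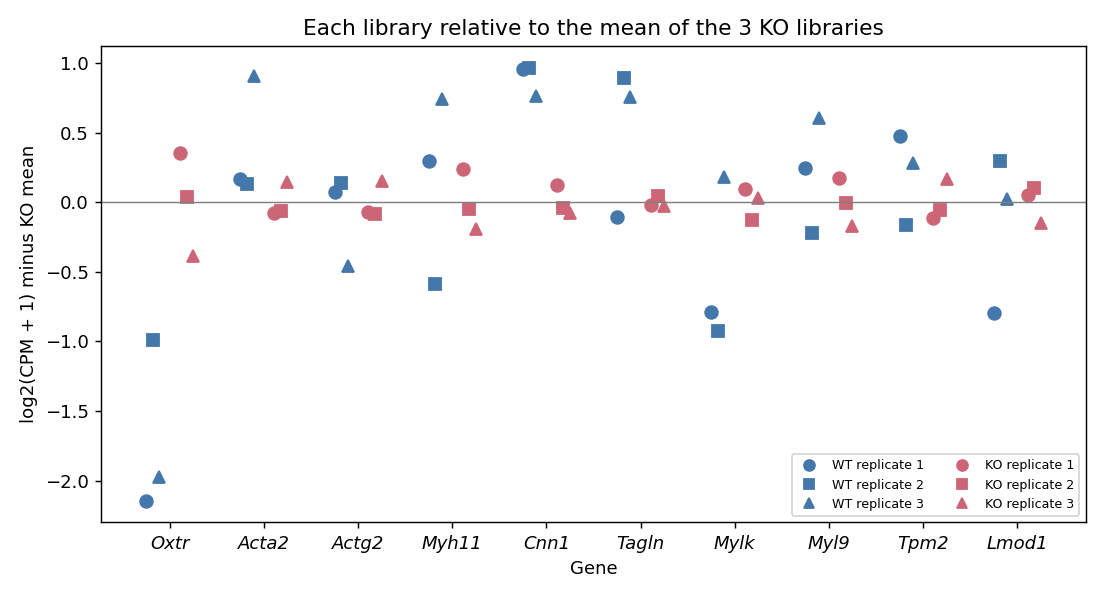
Difference of each library's log2(CPM + 1) from the mean of the 3 KO libraries, by gene, for WT (blue) and KO (red) libraries with a marker shape per replicate. The WT points of Oxtr lie between -2.14 and -0.99 and those of Cnn1 between 0.76 and 0.97, while in the other genes WT points fall on both sides of 0 or beside the KO points.

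WT replicate 3 held the highest WT level of Acta2, Myh11, Mylk and Myl9, WT replicate 2 that of Oxtr, Actg2, Cnn1, Tagln and Lmod1, and WT replicate 1 that of Tpm2, so the 10 genes did not share an order over the WT libraries. The coefficient of variation was larger in WT than in KO organoids for 9 of 10 members, Cnn1 being the exception, and for 81.9% of all tested genes. Its median was 37.3% in WT and 11% in KO over the members, beside 19.5% and 8.29% over all tested genes.

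Per gene length, the filament genes Tagln, Tpm2 and Acta2 led in both genotypes. In WT organoids Tagln averaged 68.0 ± 23.8 FPKM, Tpm2 50.2 ± 9.83 and Acta2 48.6 ± 14.8 (SD, n = 3), and these 3 neighbours overlapped between libraries. Myl9 followed at 9.27 ± 2.59 FPKM and Oxtr at 3.72 ± 1.96. Mylk (2.55 ± 1.14), Cnn1 (1.97 ± 0.232), Lmod1 (1.55 ± 0.673), Myh11 (0.914 ± 0.431) and Actg2 (0.352 ± 0.237) came next, each overlapping its neighbour. The place of Mylk depends on the gene length used, since per kilobase of the median GENCODE transcript it stood at 4.24 in WT, above Oxtr at 3.99. In KO organoids Oxtr, at 11.9 ± 3.16 FPKM, was above Myl9 in mean (7.74 ± 1.11) with overlapping libraries, and Cnn1, at 0.859 ± 0.102, was below Lmod1 (1.66 ± 0.193) with no overlap. On the CPM scale, which is not per length, Oxtr stood at 114, 90.1 and 57.7 CPM per 100 CPM of Acta2 in KO replicates 1 to 3, against 15.8, 37.9 and 10.7 in WT replicates 1 to 3.

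The 9 contractile genes summed to 272, 273 and 294 CPM in KO organoids. In WT replicates 1 to 3 the sums were 310.0, 325.0 and 420.1 CPM. The groups did not overlap, 294 and 310.0 being the nearest values, and WT replicate 3 raised the WT mean. Taken singly, 14.6% of all tested genes were also lower in KO organoids without overlap, so such a separation was common. The KO mean was 79.5% of the WT mean. Other scalings of the same libraries gave 77.1% to 80.2%, with no overlap in any of them. Acta2, Tagln and Tpm2, each with overlapping groups, made up 79.9% to 88.3% of the sum, which therefore says little of the other 6 genes. The basal keratin genes Krt5 and Krt14 together were at 215 ± 22.6 CPM in KO organoids and 215 ± 16.3 CPM in the WT group (SD, n = 3 each). Per 100 CPM of these keratins, the contractile genes were at 113, 138 and 142 CPM in KO organoids and 158, 144 and 189 CPM in WT replicates 1 to 3. The groups were again without overlap, 142 and 144 being the nearest values. Of 30 basal markers tested, 17 had positive and 13 negative log2 fold changes, from which these 2 keratins were picked. The ratio is therefore not a level per basal cell. Against the same 100 CPM of keratins, Oxtr stood at 28.4, 27.6 and 19.6 CPM in KO replicates 1 to 3, above the 5.76, 11.7 and 5.76 CPM in WT replicates 1 to 3.

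The label myoepithelial was checked against markers, and the sequenced cells were a mixture. Krt14 was at 178.3 to 216 CPM, Krt5 at 12.0 to 29.1 and Trp63, the transcription factor that defines basal epithelium, at 2.50 to 6.32 CPM, beside 1495 to 1914 CPM of the luminal keratin gene Krt8. Cnn1, Myh11 and Actg2, which mark fully contractile cells, averaged at most 1.97 FPKM in either genotype. Fibroblasts can also express Acta2, Tagln and Tpm2, and the sum of 20 fibroblast markers was 11940 to 13680 CPM in KO organoids and 3873, 11930 and 17620 CPM in WT replicates 1 to 3, with Col1a1 at 3708 to 4473 and 562 to 5348 CPM. In WT replicates 1 to 3, Acta2 was at 71.4, 69.5 and 119.8 CPM, Tagln at 66.5, 133.8 and 121.8 CPM and Tpm2 at 131.1, 83.7 and 114 CPM. The part of fibroblasts in these values was not tested, and in bulk RNA fewer cells of a type and less RNA per cell cannot be told apart.

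Vascular smooth muscle and pericytes express the same apparatus. Their 18 markers summed to 924 to 993 CPM in KO organoids and 439 to 889 CPM in WT libraries, with Steap4, Cspg4 and Pdgfrb the highest of them. Kcnj8, Abcc9, Higd1b and Vtn stayed under 1 CPM in every library, while other markers of the list were present, with Notch3 at 55.7 to 92.0 CPM, Heyl at 3.85 to 15.6 and Rgs5 at 1.98 to 6.54. Of the 15 tested, DESeq2 called 1 higher (3.97% of all tested genes), the integrin gene Itga8 (log2 fold change 0.77 ± 0.13, SE), and edgeR 0, with 1 higher at an unadjusted p under 0.05 (8.93%). Their median was 0.29, and -0.08 without WT replicate 1. The part of these cells in the contractile values was not tested. The 10 immune markers that were tested had a median of -1.54, which was -0.49 without WT replicate 2. Of these, 2 were lower in DESeq2 (Itgam and Tyrobp, beside 3.4% of all tested genes) and 0 in edgeR, with 5 lower at an unadjusted p under 0.05 (10.9%). The list's sum was 169 to 253 CPM in KO organoids and 148, 1669 and 453 CPM in WT replicates 1 to 3. WT replicate 2, the highest in this sum, was also the highest WT library for Oxtr, and the part of these cells in the result was not tested. Fibroblast markers had 1 lower call in DESeq2 (Pi16) and 0 in edgeR (1 at an unadjusted p under 0.05), with a median of 0.01 that became -0.30 on leaving out WT replicate 1 and reached 0.48 on leaving out WT replicate 3. The 9 endothelial and 5 skeletal muscle markers tested had 0 calls in either tool (0 and 1 at an unadjusted p under 0.05). The endothelial median was -0.25, moving to -0.54 when WT replicate 1 was dropped and to -0.02 when WT replicate 2 was. The skeletal median was -0.56 and ran from -0.73 to 0.23, above 0 without WT replicate 2, KO replicate 2 or KO replicate 3 and nearer 0 without WT replicate 1 (-0.09) or WT replicate 3 (-0.13).

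**Figure D3:**
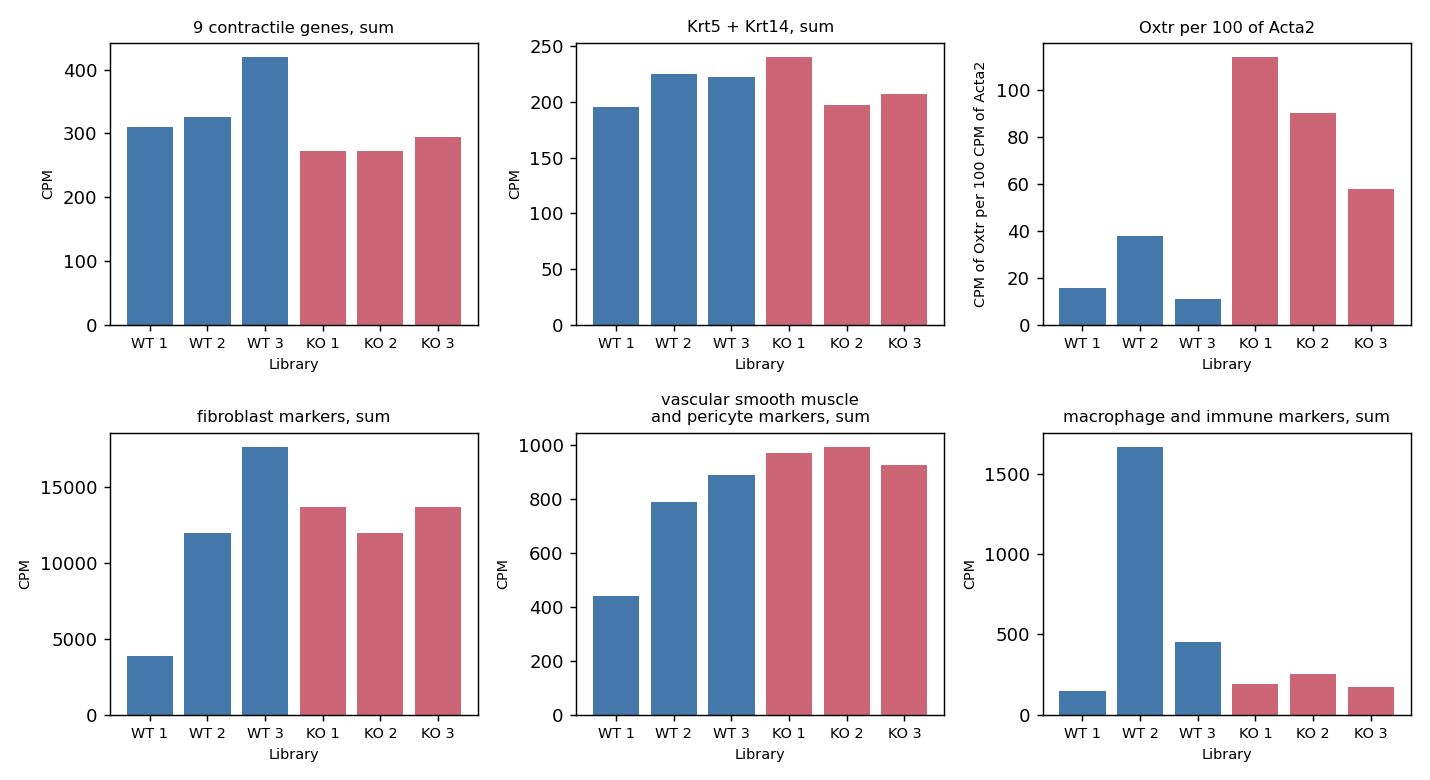
Bars from 0 give, per library (WT blue, KO red), the summed CPM of the 9 contractile genes, of Krt5 and Krt14 and of 3 marker lists, and the CPM of Oxtr per 100 CPM of Acta2. The contractile sum is 272 to 294 CPM in KO organoids and 310.0 to 420.1 in WT, and the fibroblast sum runs from 3873 to 17620 CPM within WT.

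Among listed genes of oxytocin receptor signalling, a calcium pump and a calcium-release channel had the smallest p and the largest log2 fold changes. The list also holds genes that do not act downstream, such as regulators of receptors, a related receptor and the enzyme that degrades oxytocin. Of 36 tested genes of the list, 29 had positive log2 fold changes, with a median of 0.25 (-0.05 over all tested genes). DESeq2 called 5 higher and 0 lower, beside 3.97% and 3.4% of all tested genes, and edgeR called 0, with 10 higher and 1 lower at an unadjusted p under 0.05 (8.93% and 10.9% of all tested genes). All KO libraries lay above all WT libraries for 12 of the 36 and below for 1, beside 14.2% and 14.6% of all tested genes. The 1 below was Arrb2, a beta-arrestin that uncouples activated receptors (-0.63 ± 0.22, SE). The other listed beta-arrestin gene, Arrb1, went the opposite way (0.64 ± 0.24), with every KO library above every WT library. Arrb1 was also the more abundant, its KO mean being 147 CPM beside 9.67 CPM for Arrb2. Neither passed in either tool, and both were named after their values were seen.

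Atp2b4, a calcium pump of the plasma membrane, averaged 184 ± 7.65 CPM in KO organoids and 93.5 ± 23.5 CPM in the WT group (SD, n = 3 each), with a log2 fold change of 0.98 ± 0.18 (SE) with an adjusted p of 0.0867 in edgeR and 0.000210 in DESeq2. Itpr1, an inositol trisphosphate receptor that releases stored calcium, stood at 232 ± 8.62 (KO) and 138 ± 31.0 CPM (WT), with a log2 fold change of 0.75 ± 0.17 (adjusted p 0.0995 in edgeR and 0.00285 in DESeq2). Both were higher in all KO libraries than in any WT library. The other calls of DESeq2 were Stim1, the calcium sensor of the stores (0.43 ± 0.12), Lnpep, the aminopeptidase that degrades oxytocin (0.42 ± 0.12), and the receptor channel Itpr3 (0.55 ± 0.17), named after its value was seen. Gnaq and Gna11, the G proteins the receptor couples to, were at 0.32 ± 0.10 and 0.12 ± 0.12. The phospholipase genes Plcb1, Plcb3 and Plcb4 were at 0.50 ± 0.33, 0.21 ± 0.13 and 0.50 ± 0.29. The remaining listed phospholipase gene, Plcb2, was negative at -0.43 ± 0.75, on 5 to 43 counts per library. None of these G protein and phospholipase genes passed in either tool. The related vasopressin receptor gene Avpr1a was at 0.28 ± 0.57. Gnaq, Gna11, the phospholipases and Avpr1a were named after their values were seen.

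The genes that set myosin phosphorylation beyond Mylk showed no shared direction. Of 20 tested, 10 were positive and 10 negative (median -0.0019, between -0.04 and 0.07 with a library left out). DESeq2 called 2 higher (3.97% of all tested genes), the kinase gene Pak1 (0.44 ± 0.10, SE) and the guanine nucleotide exchange factor gene Arhgef12 (0.50 ± 0.16), and edgeR called 0. At an unadjusted p under 0.05, 3 were higher and 1 lower (8.93% and 10.9% of all tested genes). Mylk2, the kinase of skeletal muscle, was at 0.624 to 0.800 CPM in KO organoids and 1.04 to 2.94 CPM in WT libraries and did not pass in either tool. Ppp1r12a, the targeting subunit of myosin phosphatase, was at -0.0083 ± 0.14 on the log2 scale, named after its value was seen.

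Among the regulators of contractile genes, the groups overlapped for Srf, myocardin and Mkl1 and were apart for Mkl2. Srf was at 99.1 to 104.6 CPM in KO organoids and 78.0 to 113 CPM in the WT group, a log2 fold change of 0.07 ± 0.14 (SE). Myocd, myocardin, was at 0.624 to 0.714 CPM in KO organoids and 0.216 to 1.11 CPM in WT libraries, a log2 fold change of 0.04 ± 0.57 on 5 to 23 counts per library. The partner gene Mkl1 (Mrtfa) was at 0.18 ± 0.12, while Mkl2 (Mrtfb) averaged 111 ± 1.38 CPM in KO organoids and 74.0 ± 7.48 CPM in the WT group, a log2 fold change of 0.58 ± 0.10 that passed in DESeq2 (adjusted p 0.000344) and not in edgeR (0.0867). DESeq2 also called Nfib (0.74 ± 0.14), Tbx3 (0.68 ± 0.15) and Smad3 (0.32 ± 0.09) higher, so 4 of 25 tested were higher and 0 lower (3.97% and 3.4% of all tested genes), and edgeR called 0. At an unadjusted p under 0.05, 5 were higher and 0 lower (8.93% and 10.9%). The median was 0.105 on the log2 scale, and 0.02 without WT replicate 2. Trp63 was at -0.15 ± 0.42, Yap1 at 0.18 ± 0.10 and Klf4, which represses contractile genes in vascular smooth muscle, at -0.50 ± 0.43.

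**Figure D4:**
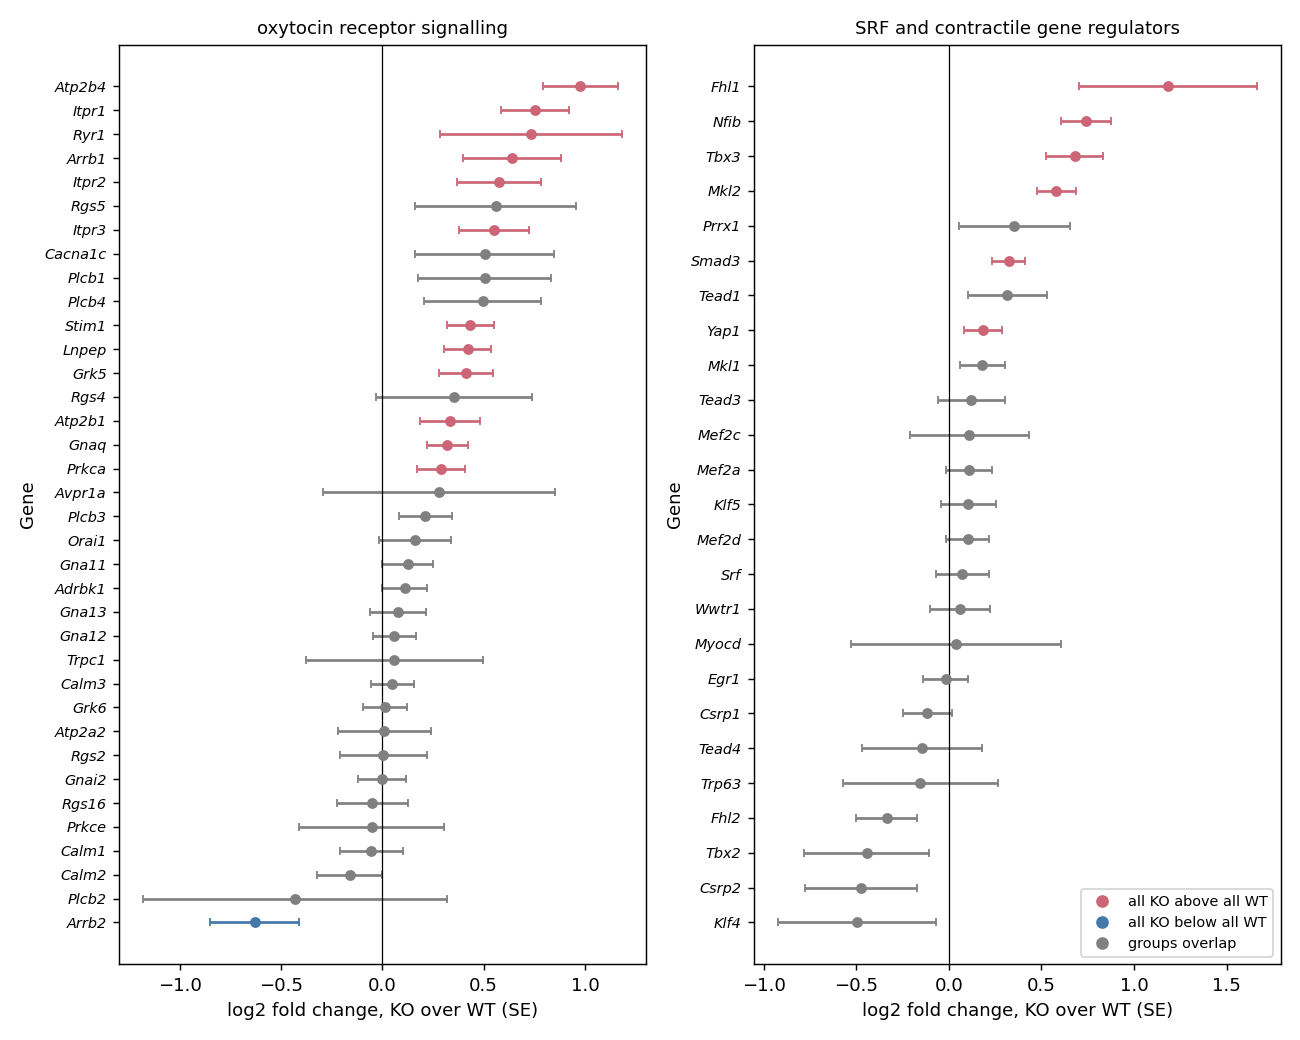
Log2 fold change of KO over WT with its SE on the horizontal axis for 36 tested genes of oxytocin receptor signalling and 25 regulators of contractile genes; red marks genes with all KO above all WT libraries, blue the reverse and grey an overlap. Atp2b4 (0.98) and Itpr1 (0.75) lead the signalling genes, and Srf (0.07) and Myocd (0.04) lie near 0.

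Further listed genes of the smooth muscle cytoskeleton were more often positive than negative. The list is broad and also holds actin and adhesion genes that are not confined to smooth muscle. Of 44 tested, 29 were positive and 15 negative, beside 55.5% negative over all tested genes, with a median of 0.13 that was 0.04 without WT replicate 2. DESeq2 called 3 higher and 0 lower (3.97% and 3.4% of all tested genes), and edgeR called 0, with 6 higher and 1 lower at an unadjusted p under 0.05 (8.93% and 10.9%). Parva, parvin alpha, which links integrins to actin, averaged 348.5 ± 5.24 CPM in KO organoids and 230 ± 24.9 CPM in the WT group (SD, n = 3 each), with a log2 fold change of 0.60 ± 0.11 (SE; adjusted p 0.0867 in edgeR and 0.000134 in DESeq2). Synpo, an actin-binding protein, was at 0.73 ± 0.18 and Pdlim3, of the actinin-binding PDZ-LIM family, at 0.81 ± 0.24, both passing in DESeq2 alone. Tagln2, the paralog of Tagln, was at -0.43 ± 0.13 and passed in neither. Caldesmon (Cald1, 0.13 ± 0.25), the other tropomyosin Tpm1 (-0.07 ± 0.13) and smoothelin (Smtn, 0.13 ± 0.22), named after their values were seen, did not pass either.

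Among 15 genes of the non-muscle actomyosin, DESeq2 called 2 heavy chains higher, Myh10 (0.76 ± 0.19, SE) and Myh14 (0.54 ± 0.14), and edgeR called 0. The other listed heavy chain gene, Myh9, was at 0.15 ± 0.23 with overlapping groups and did not pass, and was named after its value was seen. DESeq2 called 3.97% of all tested genes higher, and at an unadjusted p under 0.05 in edgeR 3 of the 15 were higher and 1 lower (8.93% and 10.9% of all tested genes). Myh10 was at 108 to 136 CPM in KO organoids and 52.9 to 85.3 CPM in WT libraries, with no overlap. The light chain gene Myl12a was at -0.40 ± 0.15 and passed in neither tool. Of the 15 genes 6 were positive and 9 negative, with a median of -0.10.

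The basal epithelial markers with DESeq2 calls were all higher in KO organoids. Of 30 tested, 17 were positive, with a median of 0.08 that ran from -0.11 to 0.20 with a library left out and was below 0 without WT replicate 1, WT replicate 2 or KO replicate 1. DESeq2 called 5 higher and 0 lower (3.97% and 3.4% of all tested genes), and edgeR called 0, with 7 higher and 2 lower at an unadjusted p under 0.05 (8.93% and 10.9%). The calls were the laminin chains Lama3 (1.32 ± 0.18, SE) and Lamb3 (0.60 ± 0.13), the integrin gene Itga6 (0.48 ± 0.10), the Notch ligand gene Dll1 (0.80 ± 0.24) and the tetraspanin gene Tspan8 (1.30 ± 0.47). Krt14 was at 0.04 ± 0.11 and Krt5 at -0.34 ± 0.35, named after their values were seen. Of 23 luminal markers tested, DESeq2 called Gata3 (0.53 ± 0.09) and Prom1 (0.76 ± 0.21) higher and Krt19 (-0.89 ± 0.21) lower, and edgeR called 0 (2 higher and 2 lower at an unadjusted p under 0.05), beside the same shares of all tested genes. Their median was -0.17, and 0.05 without WT replicate 2.

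The genes whose pattern over the 6 libraries was most like that of Oxtr were found by the root mean squared difference of log2(CPM + 1) centred on each gene's own mean, among 10654 genes with a mean of at least 5 CPM. They were Kank4 (0.369), B4galnt2 (0.386), Tspan8 (0.391), Ngfr (0.399) and Megf10 (0.401). Kank4 was at 62.0 to 95.8 CPM in KO organoids and 25.8 to 42.6 CPM in WT libraries, with KO replicate 1 the highest and WT replicate 1 the lowest, as for Oxtr. For Cnn1 the nearest genes were Aprt (0.072), Rps27l (0.099), Rpl18 (0.108), Fam96b (0.116) and Ppan (0.117), and none of the contractile genes was among them. Rpl18 was at 339 to 382 CPM in KO organoids and 614 to 713 CPM in WT libraries. The added 1 in this measure damps Cnn1, whose mean was 3.34 CPM, and nothing is read from this likeness about shared function.

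Reads shared with other genes limit some of these values. Tagln exons overlap Pcsk7 and an antisense gene on the other strand, and 48.3% of the 50-base windows of its transcript were also found there in reverse; for Mylk this was 4.28%. No strand-marking step is named, so such reads cannot be told apart and the level of Tagln is uncertain. On the same strand, 0.352% of the windows of Acta2 matched other actin genes or pseudogenes and 0.400% of those of Myh11 matched Myh9 or Myh10, and the other members had 0 shared windows of this length.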

How the data were processed

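Poly(A) RNA of 6 organoid libraries was sequenced, and the submitters' processing notes name CASAVA, STAR and mm10, without versions, counting tool or annotation. The authors' deposited table holds raw read counts per gene and library, per the file headers. The deposited FPKM values equalled the count divided by gene length and by the column total, with a largest relative difference of 2.1e-07, and were used to compare levels between genes. The test was edgeR's (version 4.0.16, under R 4.3.3; TMM scaling, minimum count 10, minimum total 15, robust quasi-likelihood F test, Benjamini-Hochberg adjustment over all genes, threshold 0.05); DESeq2 1.42.0 on the same genes was an alternative. The SE of a log2 fold change is its size divided by the square root of F. CPM used TMM-scaled library sizes. Both tools were tested on simulated data, where the share of false calls was above the threshold for both and larger for DESeq2. No molecular identifiers are named, so the counting errors given take in counting alone and not PCR duplication.

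The members, the 12 gene lists and the tests were chosen with earlier results of these data known. Named genes are the members, the regulators, up to 4 genes of each other list with the smallest edgeR p, 5 genes most like Oxtr and Cnn1 each, Ezh2, markers of other cell types whose levels stand beside a result, and those said to be named later. Alternatives were RLE and upper-quartile scaling, other filters, DESeq2, no robust estimation, a replicate block, and each library left out. Promoter windows are RefSeq's, and transcripts are from GENCODE release M21.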

Additional observations from a re-analysis of the deposited data

How the results depend on the processing

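Under 13 alternatives the log2 fold changes of Oxtr, Acta2, Cnn1, Tagln, Mylk, Myl9 and Tpm2 kept their sign, while those of Actg2, Myh11 and Lmod1 changed sign when a library was left out. Actg2 had 12 alternatives, since a filter of at least 1 CPM in 3 libraries removed it, and the medians under that filter are without it. The median of the 10 members ran from -0.38 to -0.09, that of the 9 contractile genes from -0.39 to -0.15, and 6 or 7 members were below 0. Genes called numbered 0 in edgeR, 131 without a filter (68 higher, 63 lower) and 1046 in DESeq2 (564 higher, 482 lower), and leaving out each library gave 0 to 216 (0 to 100 higher, 0 to 116 lower), with 38 without WT replicate 1 and 216 without WT replicate 2. Members called numbered 0, 2 in DESeq2 and 0 to 1 with a library left out (1 without WT replicate 1 and 1 without WT replicate 2), from which nothing is read, since the members were chosen on these counts. DESeq2, which called 7.37% of all tested genes, called 5 of 36 tested oxytocin receptor signalling genes, 5 of 30 basal markers and 4 of 25 contractile gene regulators. It called 3 of 44 other smooth muscle genes, 3 of 23 luminal markers, 2 of 20 myosin phosphorylation genes and 2 of 15 non-muscle actomyosin genes. Of immune markers 2 of 10 were called, of vascular markers 1 of 15 and of fibroblast markers 1 of 20. Without a filter edgeR called 1 gene each of the oxytocin, basal and vascular lists. Leaving out libraries gave 0 to 1 calls in the oxytocin, regulator, basal, vascular and fibroblast lists and 0 to 2 in the luminal list. The cause of these shifts was not tested.

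Whether replicate numbers pair the libraries is not settled by these data. Deviations from the group means of same-numbered libraries correlated at -0.104, 0.325 and 0.140. WT replicate 2 and KO replicate 2 were each other's best match, but so were WT replicate 1 and KO replicate 3 (0.309). With the replicate number as a block 0 genes and 0 members were called, and Oxtr was at 1.76, Cnn1 at -1.19 and Mylk at 0.54. The block changed the SE of Oxtr from 0.35 to 0.31, of Mylk from 0.30 to 0.24 and of Cnn1 from 0.23 to 0.28. Per kilobase of the median GENCODE transcript, Mylk was at 4.24 in WT and 5.78 in KO, above Oxtr in WT. A CArG box was found for 1 member, or 2 with 1 mismatch. Depth limits genes with few counts per library, such as Actg2 (2 to 19).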
